A study of Homo sapiens with 30 samples.

Results

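Chromatin opened by the same low dose of androgen was compared between 2 established human prostate cancer cell lines. The comparison used 6 of the 30 libraries of the study, 3 of LNCaP (replicates 3, 4 and 5) and 3 of VCaP (replicates 1, 2 and 4), all treated for 24 h with 0.06 nM R1881, a synthetic androgen that cells do not readily break down. Before treatment the cells of both lines had spent 48 h in medium with 8% charcoal-stripped serum, which holds little steroid. LNCaP was kept in RPMI 1640 and VCaP in DMEM, so the medium and the line cannot be told apart. LNCaP comes from a lymph node metastasis, and VCaP comes from a vertebral metastasis and carries a fusion of TMPRSS2 with ERG. Vehicle and 10 nM R1881 libraries of both lines, 3 in each group, served as the low and high ends of the dose range. Per the series' design text, the study surveyed accessible DNA to find elements that differ between low and high doses of androgen. The labels do not say that replicates came from separate cultures, so p-values here measure only the spread between these libraries, which may be technical.

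The androgen receptor is a nuclear hormone receptor that moves to the nucleus when it binds androgen and then binds inverted repeats of a short element, mostly in enhancers far from genes. In prostate cells it works together with the pioneer factors FOXA1 and HOXB13, which open closed chromatin, and it turns on luminal genes such as KLK3, which encodes prostate-specific antigen. A site at which receptor and cofactors displace nucleosomes becomes accessible to the Tn5 transposase, and ATAC-seq reads this as a peak.

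Each library is a list of peaks, and a peak's value is its percentile rank by −log10 p among the 100000 strongest entries of its library. Values near 100 mark the strongest, and none can exceed 100. A region ranked high with vehicle therefore has little room to rise. Windows of 250 bp to either side of the peak summits of all libraries gave 336189 regions on chromosomes 1 to 22 and X. A peak was listed at 171439 of them in at least 1 of the 6 libraries, and the 107847 with a peak in at least 3 of the 6 were tested. A difference is given in points of this rank, as LNCaP minus VCaP. A region with peaks in 1 line alone passes this filter only where all 3 libraries of that line list it. A gene named with a region is its nearest protein-coding gene and is not shown to be controlled from it.

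Promoter sequences are shown for 4 genes whose start differed between the lines at 0.06 nM, chosen after their values were seen. Capitals mark the matches to 1 motif in each promoter, and each sequence is the 250 bases before the gene start on its own strand, from RefSeq on GRCh38.p14.
LINC00844, chr10:58999268-58999517, plus strand: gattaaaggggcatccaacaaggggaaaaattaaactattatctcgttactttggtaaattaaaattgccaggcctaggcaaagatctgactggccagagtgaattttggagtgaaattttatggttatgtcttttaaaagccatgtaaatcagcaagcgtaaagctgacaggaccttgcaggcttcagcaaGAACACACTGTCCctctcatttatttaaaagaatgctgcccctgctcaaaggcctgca
LOC105374595, chr2:49306995-49307244, plus strand: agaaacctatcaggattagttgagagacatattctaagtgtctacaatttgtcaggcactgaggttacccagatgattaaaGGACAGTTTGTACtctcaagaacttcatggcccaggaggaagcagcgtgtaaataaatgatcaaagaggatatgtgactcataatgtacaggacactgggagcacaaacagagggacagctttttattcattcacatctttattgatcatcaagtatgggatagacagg
F3, chr1:94541760-94542009, minus strand: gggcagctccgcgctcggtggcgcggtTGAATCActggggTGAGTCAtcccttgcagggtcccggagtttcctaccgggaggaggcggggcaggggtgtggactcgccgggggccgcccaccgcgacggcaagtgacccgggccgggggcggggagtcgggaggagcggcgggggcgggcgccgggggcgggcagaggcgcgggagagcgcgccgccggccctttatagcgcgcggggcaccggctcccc
KLK3, chr19:50854665-50854914, plus strand: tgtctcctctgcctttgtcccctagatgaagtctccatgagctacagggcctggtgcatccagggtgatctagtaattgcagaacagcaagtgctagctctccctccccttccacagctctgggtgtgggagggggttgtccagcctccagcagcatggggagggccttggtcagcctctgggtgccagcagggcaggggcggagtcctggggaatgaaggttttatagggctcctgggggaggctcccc
The capitals in the first pair match the letters GNACA and TGTNC with 3 bases of any kind between them, an inverted repeat of the receptor's half-site that reads the same on both strands. They start 58 bp before LINC00844 and 169 bp before LOC105374595, a pair of non-coding RNA genes. The capitals in F3, which encodes the initiator of blood clotting, are 2 matches to TGANTCA, the AP-1 letters, the first 223 bp before the start. In lower case, LINC00844 also held 1 match to the GATA letters AGATAA and LOC105374595 held 1 to the AP-1 letters. The sequence of KLK3 matched none of the 7 motifs searched. The search took only the fixed letters of each motif, so an element with other letters would be missed. The lack of a match does not show that KLK3 lacks a receptor element.

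At the LINC00844 start the ranks at 0.06 nM were 70.4, 56.3 and 58.4 in LNCaP and 85.0, 80.5 and 81.5 in VCaP. Every VCaP library lay above every LNCaP library, and the difference was −20.6 ± 7.01 (SE) points (limma, adjusted p = 0.020). With vehicle this region had ranks of 0 in each library in LNCaP and 68.2, 64.8 and 60.2 in VCaP. The change from vehicle was more positive in LNCaP, by 43.7 ± 9.84 (SE) points (limma, adjusted p = 0.012). At the LOC105374595 start the ranks were 72.0, 61.9 and 66.1 in LNCaP and 93.4, 94.0 and 90.9 in VCaP, with no overlap (limma, adjusted p = 0.0010). Its change from vehicle was also more positive in LNCaP, by 34.4 ± 8.38 (SE) points (limma, adjusted p = 0.020). The vehicle means were 27.0 in LNCaP and 87.5 in VCaP, so VCaP had little room to rise at this start. The F3 start was unlisted in all 3 LNCaP libraries and ranked 81.3, 75.5 and 82.8 in VCaP (limma, adjusted p = 2.5e-11). The KLK3 start was listed in LNCaP and in no VCaP library, with values given below. Over all 27195 promoters of 300 bases, from 250 before to 50 after the start, this inverted repeat was in 0.3898%. It was in 7 of 1122 promoters (0.624%) at regions higher in VCaP, in 2 of 1725 (0.116%) at regions higher in LNCaP and in 13 of 6766 (0.192%) at regions not called. A match is a description of the letters and not a measured binding site.

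The libraries of the 2 lines differed in depth. Read numbers are unknown, but the background pileup recovered from the peak statistics was 3.59, 4.07 and 5.26 in LNCaP and 2.51, 2.05 and 2.69 in VCaP, and the median fold enrichment of the kept peaks was 6.97, 6.50 and 7.03 in LNCaP and 6.24, 3.93 and 4.73 in VCaP. The groups did not overlap in either measure, at an exact permutation p of 0.1, the smallest that 3 libraries against 3 allow. VCaP replicate 2 had the lowest value of both and is named below where a result turns on it. The weakest entry kept had a −log10 p of 5.89, 6.17 and 12.2 in LNCaP and of 5.06, 3.54 and 3.74 in VCaP, so the kept lists reach weaker peaks in VCaP. Among the vehicle libraries, VCaP replicates 1 and 2 were the shallowest, at 1.14 and 1.09. Spearman's rho over the tested regions was 0.821 to 0.884 between libraries of 1 line and 0.360 to 0.416 between lines. The defining genes of both lines were checked at their starts. At least 9 of 12 luminal epithelial markers had a listed start in every library, and 2 or 3 of 10 basal, 3 of 11 stromal and 2 or 3 of 11 immune markers had one, ranges that were the same in both lines for these 3 lists. Of 12 neuroendocrine markers, 10 or 11 had a listed start in both lines. Listed starts therefore do not set luminal apart from neuroendocrine markers.

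The open chromatin of the 2 lines differed widely at this dose. Of the 107847 regions tested, 29211 (27.1%) ranked higher in LNCaP and 18714 (17.4%) higher in VCaP, 44.4% in all, at a limma adjusted p under 0.05. The median difference was 41.5 points among the first and −45.6 points among the second, against 4.82 points over all regions tested. All 3 libraries of LNCaP lay above all 3 of VCaP at 39726 regions (36.8%), and the reverse held at 24662 (22.9%). LNCaP thus held 61.0% of the calls, but its share was 46.4% (3551 against 4102 regions) when only the 46161 regions with a peak in all 6 libraries were fitted.

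**Figure D1:**
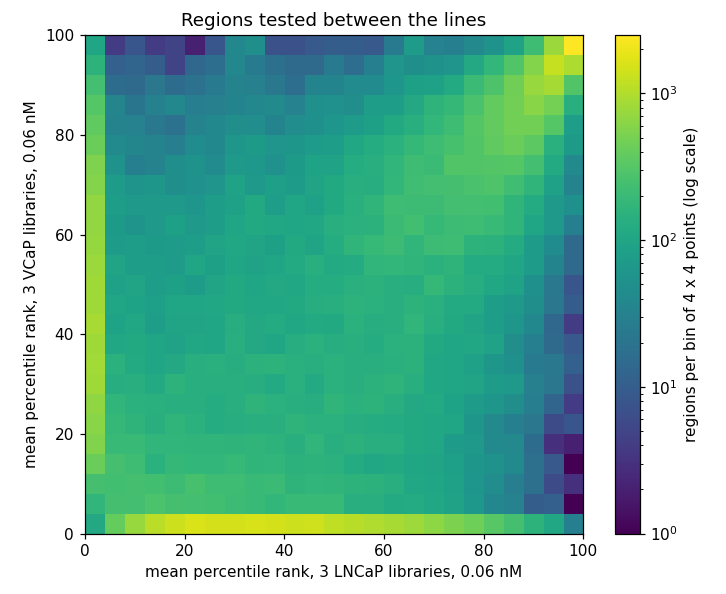
Number of tested regions by mean percentile rank in the 3 LNCaP libraries (horizontal axis) and the 3 VCaP libraries (vertical axis) at 0.06 nM R1881, in bins of 4 by 4 points with a logarithmic colour scale. Regions gather along the diagonal at high ranks in both lines and along both axes, where 1 line has no listed peak.

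Regions were also counted by which libraries listed them, with no test between the patterns. A peak was listed in all 6 libraries at 46161 regions, with median ranks of 74.8 in LNCaP and 72.6 in VCaP, and 32.7% of them lay within 1 kb of a gene start. A peak was listed in all 3 LNCaP and no VCaP library at 18671 regions, of which 2.65% lay within 1 kb of a start. The reverse pattern held at 10960 regions, of which 14.01% did, while the share over all tested regions was 18.7%. These regions were mostly weaker peaks, with a median rank of 39.3 in LNCaP and 49.7 in VCaP. Many were listed with vehicle as well. Of the LNCaP pattern, 10321 regions (55.3%) were also listed in all 3 LNCaP vehicle libraries and 10.1% in none of them. Of the VCaP pattern, 5332 regions (48.6%) were listed in all 3 VCaP vehicle libraries and 11.1% in none.

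A further question was how much of each line's high-dose androgen program was already open at 0.06 nM. Regions listed in all 3 libraries at 10 nM and in no vehicle library of the same line were taken as that program, so the 0.06 nM libraries had no part in the choice. The LNCaP program held 14459 regions and the VCaP program 7176, and 2771 regions were in both. The programs lay far from gene starts, with 2.05% and 2.44% of their regions within 1 kb of one. At 0.06 nM the LNCaP libraries listed 50%, 49.5% and 45.1% of the LNCaP program (48.2% ± 2.72, SD, n = 3). The VCaP libraries listed 64.7%, 34.2% and 63.9% of the VCaP program (54.3% ± 17.4, SD, n = 3). The ranges overlapped, and the difference of 6.08 percentage points was smaller than the spread between the VCaP libraries (exact permutation p = 0.6). Replicate 2, the shallowest of the VCaP libraries, gave the low value. Without it the difference was 16.1 points (exact permutation p = 0.1, the smallest possible here), and without VCaP replicate 2 at 10 nM, which helps to set the program, it was −2.40 points (exact permutation p = 1).

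The 2771 regions opened at 10 nM in both lines give the same set of sites to compare. LNCaP listed 51.7%, 49.7% and 39.6% of them at 0.06 nM, and VCaP listed 69.6%, 38.1% and 69.4%. VCaP replicates 1 and 4 lay above all LNCaP libraries and VCaP replicate 2 below them, and the difference of 12.1 percentage points had an exact permutation p of 0.4. All 3 LNCaP libraries listed 878 of the regions (31.7%), all 3 VCaP libraries listed 900 (32.5%), all 6 listed 370, and none listed 289 (10.4%). Their median rank was 2.80, 0 and 0 in LNCaP and 25.95, 0 and 29.7 in VCaP at 0.06 nM. At 10 nM it was 57.5, 50.9 and 53.0 in LNCaP and 57.2, 53.8 and 54.1 in VCaP. At 1748 of these regions the line comparison could be tested, and 310 (17.7%) ranked higher in LNCaP and 551 (31.5%) higher in VCaP, with a median of −6.82 points. The same shares over all tested regions were 27.1% and 17.4%.

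Part of each program was open in the other line too. The 2771 shared regions are in both programs, and there the rule sets the vehicle value of both lines to 0. VCaP libraries listed 42.1%, 25.8% and 40.6% of the LNCaP program at 0.06 nM, against 19.8%, 9.59% and 16.3% with vehicle. Outside the shared regions the values were 35.6%, 22.9% and 33.7% at 0.06 nM against 24.4%, 11.9% and 20.2% with vehicle, and the doses overlapped through VCaP replicate 2 at 0.06 nM and replicate 1 with vehicle. LNCaP libraries listed 39.7%, 38.4% and 34.4% of the VCaP program at 0.06 nM, against 15.2%, 14.8% and 12.03% with vehicle. Outside the shared regions the values were 32.2%, 31.4% and 31.1% against 24.8%, 24.1% and 19.6%, where the doses did not overlap. Sites that close with androgen were counted in the same way, as regions listed in all 3 vehicle libraries and in none at 10 nM. Of the 4723 such regions of LNCaP, 66.2%, 71.0% and 58.6% were still listed at 0.06 nM, and of the 1965 of VCaP, 62.0%, 30.1% and 45.4%. LNCaP replicate 5 was the only LNCaP library below any VCaP library, and the difference of −19.4 points, VCaP minus LNCaP, had an exact permutation p of 0.2.

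**Figure D2:**
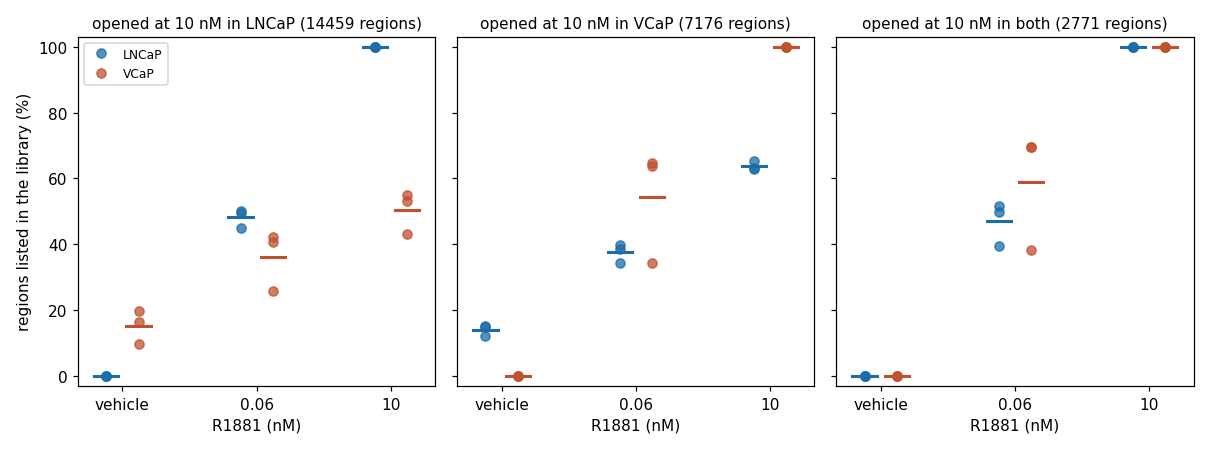
Share of 3 region sets listed in each library (percent) with vehicle, 0.06 nM and 10 nM R1881, for LNCaP (blue) and VCaP (red); points are libraries and bars are means of 3. The values of 0 with vehicle and 100 at 10 nM in a line's own set, and in both lines' values for the shared regions, are fixed by how the sets were chosen, and VCaP replicate 2 is the low red point at 0.06 nM in each panel.

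Among the receptor's textbook targets, KLK3 and its neighbour KLK2 on chromosome 19 differed in which of their sites were open. KLK3 encodes prostate-specific antigen and KLK2 a related kallikrein protease. The region chr19:50850686-50851186, 4.0 kb from the KLK3 start, ranked 87.1, 83.3 and 67.3 in LNCaP and 92.9, 88.5 and 96.7 in VCaP at 0.06 nM. All VCaP libraries were above all LNCaP libraries, by a difference of −13.4 ± 4.19 (SE) points (limma, adjusted p = 0.011). Its mean rank with vehicle was 61.2 ± 7.33 (SD, n = 3) in LNCaP and 92.6 ± 3.68 in VCaP. It rose in LNCaP, by 18.1 ± 4.19 (SE) points (limma, adjusted p = 0.0059). At the KLK3 start, chr19:50854574-50855074, LNCaP ranked 75.4, 81.3 and 54.4 and VCaP 0 in each library. That start was unlisted in VCaP at vehicle and at 10 nM as well, while its LNCaP mean went from 17.3 with vehicle to 70.4 at 0.06 nM. The change differed between the lines by 53.1 ± 12.5 (SE) points (limma, adjusted p = 0.016). The region chr19:50860996-50861496, 0.5 kb beyond the gene, ranked 77.8, 77.1 and 66.5 in LNCaP and was listed in no LNCaP vehicle library and no VCaP library at any of the 3 doses. Its change differed between the lines by 73.8 ± 7.42 (SE) points (limma, adjusted p = 1.9e-06). It passed the filter of the change only through the LNCaP libraries at 0.06 nM, where it is high, so this p-value is a description. Of 6 KLK3 regions tested, 3 ranked higher in LNCaP and 2 in VCaP, against 27.1% and 17.4% over all regions. Ranked by fold enrichment over the local background instead, a setting in which 24% of all regions ranked higher in LNCaP and 15.9% in VCaP, 0 of the KLK3 regions passed in LNCaP and 2 in VCaP.

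KLK2 regions were higher in VCaP or did not pass the test. The region chr19:50879918-50880418 inside KLK2 ranked 37.1, 19.9 and 26.1 in LNCaP and 97.4, 98.4 and 94.95 in VCaP. VCaP was far above LNCaP in every library, by a difference of −69.2 ± 5.33 (SE) points (limma, adjusted p = 1.8e-10). The site was already at a mean rank of 89.3 in VCaP with vehicle and was unlisted in LNCaP with vehicle, and it rose in LNCaP by 27.7 ± 5.30 (SE) points (limma, adjusted p = 0.00096). The local background there was 18.3 times the library median in VCaP and 2.39 times in LNCaP, and its part in the result was not tested. The KLK2 start, chr19:50872991-50873491, ranked 94.4, 93.0 and 83.6 in LNCaP and 95.2, 83.2 and 91.2 in VCaP, with overlapping ranges (limma, adjusted p = 0.94). A distal region 9.3 kb beyond the gene, chr19:50889619-50890119, was likewise high in both, at 94.1, 94.9 and 92.0 and 97.4, 93.0 and 98.2 (limma, adjusted p = 0.56). In LNCaP both of these rose from vehicle, by 13.4 and 16.2 points (limma, adjusted p = 0.020 and 0.0017). Of 8 KLK2 regions, 3 ranked higher in VCaP and 0 in LNCaP, against 17.4% and 27.1% over all regions. Ranked by fold enrichment, 4 and 0 did, against 15.9% and 24%.

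FKBP5, which encodes a chaperone of steroid receptors and is induced by androgen and glucocorticoid, had more regions ranked higher in LNCaP than in VCaP. Of its 16 tested regions, 8 ranked higher in LNCaP and 0 in VCaP, against 27.1% and 17.4% over all regions, with a median difference of 18.7 points. Ranking by fold enrichment gave 4 and 0, against 24% and 15.9%, so in that setting the LNCaP share was near that over all regions. The region chr6:35610808-35611308 inside the gene ranked 77.6, 78.1 and 81.3 in LNCaP and 0 in each library in VCaP. It was unlisted with vehicle in both lines and reached means of 92.0 in LNCaP and 38.7 in VCaP at 10 nM, and the change at 0.06 nM differed by 79.0 ± 13.4 (SE) points (limma, adjusted p = 0.00092). It was picked as the FKBP5 region with the largest change in LNCaP at 0.06 nM. It also passed the filter of the change only through the LNCaP libraries at that dose, so this p-value is a description. A region 6.0 kb inside the start, chr6:35722362-35722862, opened in both lines. Its ranks were 64.0, 63.5 and 20.1 in LNCaP and 76.6, 55.6 and 82.2 in VCaP at 0.06 nM and 0 with vehicle in all 6 libraries. The groups overlapped (limma, adjusted p = 0.14). Near the FKBP5 start, chr6:35727870-35728370, LNCaP ranked 93.5, 96.0 and 96.4 and VCaP 82.5, 80.9 and 89.2, without overlap, a difference of 11.1 ± 3.04 (SE) points (limma, adjusted p = 0.0047). The median local background over FKBP5 was 0.970 times the library median in LNCaP and 2.01 times in VCaP.

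TMPRSS2, a membrane protease gene whose androgen-driven promoter is fused to ERG in VCaP, ranked near the same level in both lines at its start, chr21:41507922-41508422. The values were 92.7, 91.2 and 90.9 in LNCaP and 90.4, 93.8 and 88.0 in VCaP, a difference of 0.865 ± 3.23 (SE) points (limma, adjusted p = 0.85). Of the 23 TMPRSS2 regions tested, 13 were listed in all 6 libraries. All LNCaP and no VCaP libraries listed 1, and the reverse held at 3. An example of each of these line patterns lay before the gene. The region chr21:41530298-41530798, 22.4 kb from the start, ranked 59.3, 66.8 and 42.2 in LNCaP and 0 in each library in VCaP (limma, adjusted p = 3.6e-06). The region chr21:41593147-41593647, 85.2 kb from the start, ranked 0 in each library in LNCaP and 78.0, 70.0 and 83.4 in VCaP (limma, adjusted p = 3.0e-07). Neither changed from vehicle beyond the threshold in either line. Of 23 TMPRSS2 regions, 2 ranked higher in LNCaP and 6 in VCaP, against 27.1% and 17.4% over all regions. Ranked by fold enrichment, 3 and 3 did, against 24% and 15.9%.

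**Figure D3:**
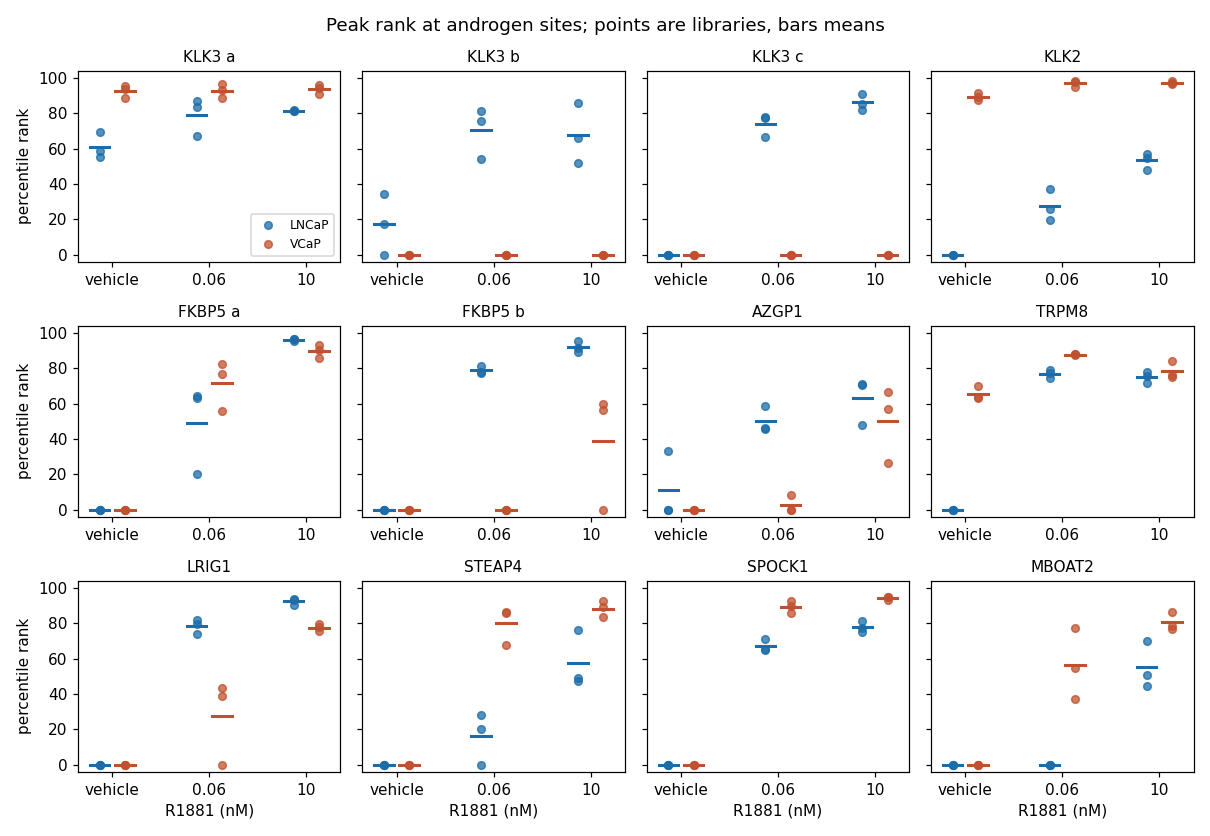
Percentile rank of 12 androgen sites with vehicle, 0.06 nM and 10 nM R1881 in LNCaP (blue) and VCaP (red); points are libraries and bars are means of 3. KLK3 a, b and c are the regions 4.0 kb from the start, at the start and 0.5 kb beyond the gene, and FKBP5 a and b are those 6.0 kb and 117.5 kb from the start; TRPM8 starts open in VCaP, while MBOAT2 is at 0 in LNCaP at 0.06 nM.

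For each of 56 androgen-induced genes the region with the largest mean rise from vehicle to 10 nM over both lines was taken as its site, again without the 0.06 nM libraries. A site was found for 55 genes. All 3 libraries listed it at 0.06 nM for 31 genes in LNCaP and for 31 in VCaP. Of the 42 sites tested between the lines, 4 ranked higher in LNCaP, 8 higher in VCaP and 30 did not pass. The shares over all regions were 27.1% and 17.4%, so the share higher in VCaP was near that over all regions. The median difference of the sites was −9.02 points against 4.82 over all regions. At 46 sites the change from vehicle could be fitted, and it rose in LNCaP at 19 and in VCaP at 12, with medians of 29.4 and 26.6 points. Over all regions 5.38% rose in LNCaP and 3.81% in VCaP, but the vehicle libraries also helped to choose the sites, so these counts and the line differences of the change at the sites are descriptions.

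Several sites were more open in VCaP at the low dose. The SPOCK1 site, chr5:137080175-137080675, beside a proteoglycan gene, ranked 71.0, 64.8 and 65.5 in LNCaP and 89.9, 85.8 and 92.6 in VCaP. The lines did not overlap, with a difference of −22.4 ± 5.70 (SE) points (limma, adjusted p = 0.0026). At the STEAP4 site, chr7:88303369-88303869, near the gene of a metalloreductase, LNCaP ranked 27.9, 20.3 and 0 and VCaP 86.0, 67.6 and 86.6. All 6 vehicle libraries were at 0 there, and the difference at 0.06 nM was −64.0 ± 13.6 (SE) points (limma, adjusted p = 0.00050). The MBOAT2 site, chr2:8924244-8924744, near an acyltransferase gene of phospholipid metabolism, ranked 0 in each library in LNCaP and 54.9, 37.4 and 77.5 in VCaP. LNCaP reached a mean rank of 55.2 at 10 nM, so the site was listed in LNCaP only at the higher of these doses. A weaker LNCaP peak at 0.06 nM is not excluded. The difference at 0.06 nM was −56.6 ± 8.96 (SE) points (limma, adjusted p = 1.7e-05). The ZNF189 site, near a zinc finger gene, was at 0 in each library in LNCaP and 58.8, 44.1 and 66.9 in VCaP (limma, adjusted p = 9.5e-07). Its VCaP mean was 56.9 with vehicle and 62.3 at 10 nM, so it hardly rose with dose. At the SGK1 site, near a kinase gene induced by steroids, LNCaP was at 0 in each library and VCaP at 37.9, 7.50 and 57.1 (limma, adjusted p = 0.0046). The IQGAP2 site, near a scaffold protein gene, ranked 49.5, 41.3 and 27.0 in LNCaP and 64.6, 62.1 and 84.8 in VCaP (limma, adjusted p = 0.017), a call that was lost without LNCaP replicate 5 or VCaP replicate 4.

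The LRIG1 and AZGP1 sites were more open in LNCaP. At TRPM8, C1orf116, KLK15 and CHRNA2 only the change from vehicle was more positive in LNCaP. The LRIG1 site, chr3:66572020-66572520, near the gene of an inhibitor of growth factor receptors, ranked 79.8, 81.6 and 74.1 in LNCaP and 38.9, 0 and 43.5 in VCaP. Every LNCaP library lay above every VCaP library, by 51.0 ± 7.85 (SE) points (limma, adjusted p = 1.1e-05), and all vehicle libraries were at 0. The AZGP1 site, near the gene of a secreted zinc-binding glycoprotein, ranked 58.5, 45.4 and 46.0 in LNCaP and 0, 0 and 8.16 in VCaP (limma, adjusted p = 0.00041). At the TRPM8 site, chr2:234020237-234020737, near the gene of a cold-sensing cation channel, the ranks at 0.06 nM were 77.1, 79.0 and 74.7 in LNCaP and 88.1, 87.2 and 87.8 in VCaP. Every VCaP library was above every LNCaP library, but the difference did not pass the test (limma, adjusted p = 0.062). The vehicle ranks were 0 in each library in LNCaP and 63.4, 69.7 and 63.9 in VCaP. C1orf116, KLK15 and CHRNA2 sites had the same order with vehicle, with means of 31.6, 37.3 and 42.8 in LNCaP and 75, 73.4 and 80.9 in VCaP. At 0.06 nM their LNCaP means were 84.1, 73.9 and 79.3 and their VCaP means 88.7, 73.4 and 86.0, and none of the 3 passed the test between the lines.

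FOXA1 and HOXB13, the pioneer factors of the receptor, differed in their counts of called regions, which stand against 27.1% higher in LNCaP and 17.4% higher in VCaP over all regions. Of 8 FOXA1 regions, 4 ranked higher in VCaP and 0 in LNCaP. The region chr14:37583666-37584166, 11.3 kb from the FOXA1 start, was 0 in each library in LNCaP and 93.5, 93.3 and 95.4 in VCaP, and chr14:37584661-37585161 beside it 0, 13.96 and 5.05 and 80.8, 91.6 and 86.7. Both were open in VCaP with vehicle, at means of 93.5 and 89.7. At the FOXA1 start the ranks were 59.2, 61.2 and 22.02 in LNCaP and 77.2, 65.9 and 85.2 in VCaP (limma, adjusted p = 0.046), but the difference was not called when only summits inside the window counted. HOXB13 had 5 tested regions and no call in either direction. Its region near the start ranked 77.8, 77.8 and 38.2 in LNCaP and 63.1, 60.8 and 78.0 in VCaP, with overlapping ranges. The largest HOXB13 difference, 6.4 kb from the gene, was 26.3 ± 12.8 (SE) points (limma, adjusted p = 0.099).

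At ERG, and in sum over the ETS genes, more regions ranked higher in VCaP than in LNCaP. ERG encodes the ETS factor that the fusion places under androgen control. Of 26 ERG regions, 14 ranked higher in VCaP and 0 in LNCaP, against 17.4% and 27.1% over all regions. On chromosome 21, which holds ERG, 34.6% of tested regions ranked higher in VCaP and 14.8% in LNCaP. Ranked by fold enrichment, 12 ERG regions were higher in VCaP and 1 in LNCaP, against 15.9% and 24% over all regions. At an ERG start, chr21:38660514-38661014, LNCaP ranked 2.80, 9.54 and 0 and VCaP 71.2, 86.0 and 78.9, without overlap, a difference of −74.6 ± 7.50 (SE) points (limma, adjusted p = 1.7e-08). The region chr21:38668031-38668531 was 0 in each library in LNCaP and 73.7, 79.9 and 74.1 in VCaP, and it rose from vehicle in VCaP by 55.4 ± 12.2 (SE) points (limma, adjusted p = 0.0055). The local background over ERG was 1.48 times the library median in VCaP and 0.759 times in LNCaP, and its part was not tested. ETV1, an ETS gene known to be rearranged in LNCaP, had 4 of 16 regions higher in LNCaP and 3 in VCaP. These shares were near the 27.1% and 17.4% over all regions. Over 22 ETS genes 32 of 188 regions (17.02%) ranked higher in LNCaP and 52 (27.7%) in VCaP. Over 21 genes linked to ERG the counts were 25 (16.3%) and 44 (28.8%) of 153. Both lists stand against the same 27.1% and 17.4% over all regions. Examples were an ETV3 region at 80.5, 80.2 and 76.5 in LNCaP and 0 in each library in VCaP, and an ETV5 region at 0, 12.9 and 17.5 and 92.6, 85.6 and 84.6. TDRD1, a germline gene linked to ERG, had a called region in each direction. Its start ranked 0 in LNCaP and 49.5, 50.9 and 66.4 in VCaP (limma, adjusted p = 5.5e-06), and another region ranked 86.1, 87.6 and 83.2 in LNCaP and 0 in each library in VCaP.

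The remaining androgen pathway lists are given by role, with no test between lists. Genes of androgen synthesis and inactivation had 34 of 121 regions (28.1%) higher in LNCaP and 16 (13.2%) in VCaP. A region of SRD5A2, which makes dihydrotestosterone, was 0 in each library in LNCaP and 91.0, 95.6 and 93.7 in VCaP (limma, adjusted p = 3.0e-13). UGT2B15 conjugates androgens for removal and has near-identical neighbours whose reads may be hard to place. A region 62.5 kb from it had the same order, at 0 in each library and 98.2, 95.9 and 95.8 (limma, adjusted p = 1.9e-13). The UGT2B15 start ranked higher in LNCaP, at 87.0, 88.3 and 91.5 against 84.9, 1.70 and 81.0 in VCaP (limma, adjusted p = 0.041). The size of this difference rested on VCaP replicate 2, at 1.70, while VCaP replicates 1 and 4 lay only a little below LNCaP. Of 4 UGT2B15 regions tested, 1 was called in each direction. SULT2B1, a steroid sulfotransferase gene, was also higher in LNCaP, at 87.3, 85.9 and 77.2 in LNCaP and 0 in each library in VCaP (limma, adjusted p = 1.1e-12). Receptor coregulator genes had 69 of 230 regions (30%) higher in LNCaP and 34 (14.8%) in VCaP, among them a region of NCOA1, a coactivator gene, at 78.7, 84.6 and 85.1 in LNCaP and 0 in each library in VCaP. A region of FKBP4, the gene of a receptor co-chaperone, was 0 in each library in LNCaP and 94.5, 85.9 and 90.4 in VCaP. Other steroid and nuclear receptor genes had 68 (19.0%) and 91 (25.5%) of 357, with a region of THRB, a thyroid hormone receptor gene, at 0, 21.8 and 0 in LNCaP and 92.6, 90.1 and 94.9 in VCaP. Luminal and pioneer factor genes had 17.5% and 27.0% of 429, with a KLF4 region at 0 in each library and 92.8, 87.4 and 89.5. The 56 androgen-induced genes had 168 (24.5%) and 139 (20.3%) of 685 regions, and 18 androgen-repressed genes 56 (28.4%) and 45 (22.8%) of 197. All these shares stand against 27.1% and 17.4% over all regions. Neighbouring regions can share 1 broad peak, so counts within a gene are not independent.

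The largest differences between the lines were mostly present without androgen. The rule took the 8 largest each way among called regions without overlap. In LNCaP those reported here were near HOGA1, HNRNPC, ABCA2, MKNK2, UNC13A, PRAG1 and ARMC5, and in VCaP near LOC107987020, MARK2, MACROD1, TIAM1, PROCA1, ZBTB7B and ACTR3C. The HOGA1 start region, chr10:97583995-97584495, beside a gene of hydroxyproline breakdown, ranked 99.5, 99.5 and 99.8 in LNCaP and 0 in each library in VCaP, with a LNCaP vehicle mean of 99.7. The MACROD1 region, chr11:63999302-63999802, was 0 in each library in LNCaP and 99.92, 99.7 and 99.92 in VCaP, with a VCaP vehicle mean of 99.86. In the line where each of these named regions was high, the local background was 2.15 (ACTR3C) to 16.2 (MACROD1) times the library median. Its part in the differences was not tested. A region can change from a high rank to 0 when the edge of a strong peak moves past its centre. A second reading therefore took only peaks whose summit lay inside the window, and regions called both ways numbered 43137 (40% of tested), 26974 (25%) higher in LNCaP and 16163 (15%) higher in VCaP. These are 90.01% of the calls, and they held the regions near HOGA1, ABCA2, MKNK2, UNC13A, PRAG1, MACROD1, ZBTB7B and ACTR3C. The HNRNPC, ARMC5, LOC107987020, MARK2, TIAM1 and PROCA1 regions could not be tested with the summit in the window. ID4, the gene of an inhibitor of helix-loop-helix factors, had a region called both ways at 0 in each library in LNCaP and 99.6, 99.0 and 99.4 in VCaP, and FSIP2, a sperm protein gene, one at 97.0, 97.5 and 99.5 and 0 in each library.

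The change from vehicle to 0.06 nM also differed between the lines. In LNCaP 10295 of 133464 regions changed (7.71%), of which 7187 rose (5.38%) and 3108 fell (2.33%), by limma. In VCaP 7769 changed (5.82%), of which 5089 rose (3.81%) and 2680 fell (2.01%). Fitted on the groups compared alone, limma called 4303 regions in LNCaP and 0 in VCaP, although 9779 of the VCaP regions had an unadjusted p under 0.05 in that limma fit and 21765 in the fit over all groups. With all entries as deposited, the lower calls fell to 1156 in LNCaP and 837 in VCaP, and rises made up 90.3% and 91.1% of the calls. By limma's test of the difference between the changes, the change was more positive in LNCaP at 2332 regions (1.75%) and in VCaP at 1807 (1.35%), and either a rise in 1 line or a fall in the other can give such a call. Of these 4139 regions (3.1%), 1807 rose in LNCaP and were not called in VCaP, 1004 rose in VCaP and were not called in LNCaP, 773 fell in LNCaP alone, 439 fell in VCaP alone, 72 rose in both and 5 rose in LNCaP and fell in VCaP. Without LNCaP vehicle replicate 5, the regions with the more positive change in VCaP numbered 3031.

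Named regions of this difference that were called both ways included OTOL1 and GNAI1 on the LNCaP side. The region nearest OTOL1, an inner ear collagen gene, chr3:161586706-161587206, ranked 87.0, 87.0 and 87.7 in LNCaP and 93.6, 97.0 and 93.6 in VCaP at 0.06 nM. With vehicle it was 0 in each library in LNCaP and had a mean of 93.0 in VCaP, and the change differed by 85.5 ± 3.01 (SE) points (limma, adjusted p = 1.0e-14). VCaP thus had little room to rise there. The GNAI1 region, near a G protein subunit gene, ranked 67.6, 65.6 and 20.2 in LNCaP and 0, 0 and 10.4 in VCaP, and its VCaP vehicle mean was 53.3. On the VCaP side, a region of CHL1, a neural adhesion gene, was 0 in each library in LNCaP and 91.9, 81.5 and 88.2 in VCaP (limma, adjusted p = 0.00024 for the change), and at 10 nM its means were 0 and 96.1. The ALDH2 start region, at a gene of acetaldehyde oxidation, ranked 0 in each library in LNCaP and 91.3, 81.7 and 87.4 in VCaP (limma, adjusted p = 6.8e-05 for the change). It opened in LNCaP at 10 nM, with a mean of 42.6. KIF24, a kinesin gene of cilium control, had a region at 0 in each library in LNCaP and 90.9, 89.9 and 82.5 in VCaP and at 0 with vehicle in both. The CHL1, ALDH2 and KIF24 regions passed the filter of the change only through the VCaP libraries at 0.06 nM, where they are high. The p-values of their change are therefore descriptions.

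Differences were uneven over the chromosomes. On chromosome 16, 50.3% of 3107 tested regions ranked higher in LNCaP and 6.08% higher in VCaP, with a median difference of 21.7 points. On chromosome 21, 14.8% of 1469 ranked higher in LNCaP and 34.6% in VCaP, with a median of −9.80 points. On chromosome X the shares were 25.5% and 18.4%. The local background of LNCaP over VCaP moved with these values, with a median log2 ratio of 1.35 on chromosome 16, −0.42 on chromosome 21 and 0.33 over all regions with a peak in all 6 libraries. Across the 23 chromosomes the median difference and this ratio had a Pearson r of 0.928 and a Spearman rho of 0.838, given as a description of chromosomes measured in the same 6 libraries. Pearson's r was 0.772 without chromosomes 16 and 21. Ranking by fold enrichment gave 31.9% and 7.56% on chromosome 16 and 15.9% and 25.7% on chromosome 21. The copy number of these chromosomes was not measured here, and the part of the local background in the differences was not tested.

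**Figure D4:**
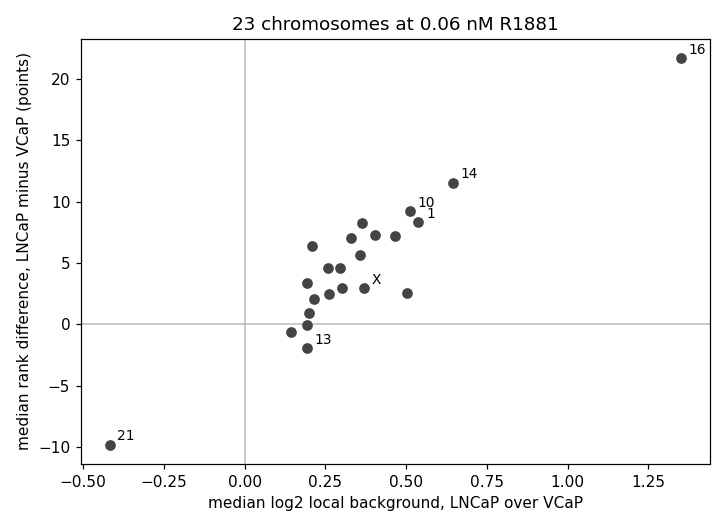
Median rank difference of each of 23 chromosomes (vertical axis, LNCaP minus VCaP, points) against the median log2 ratio of local background, LNCaP over VCaP (horizontal axis), at 0.06 nM R1881. Chromosome 16 lies at the upper right and chromosome 21 at the lower left.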

How the data were processed

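Omni-ATAC-seq peak lists of 30 libraries in 10 groups of 3 were used, and line, dose and replicate number came from the labels. Reads were trimmed, aligned and called by tools that, per the submitters' processing notes, include MACS2 (2.2.7.1), BWA (0.7.17), Trimmomatic (0.39) and deepTools (3.5.1), and the build was GRCh38. The authors deposited a whole-number score for each peak, which is its −log10 p times 10 without decimals. The deposited fold enrichment is a ratio of the summit to the local background. The −log10 p and −log10 q of each summit, and its offset in bp in another column, are also the authors' values. Read counts are not in these lists, so depth is unknown and no counting interval is given.

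The 100000 entries of largest −log10 p of each library were kept. Windows of 250 bp to either side of summits were placed strongest first, without overlap. A region's value is the percentile rank of the entry that covers its centre base, or 0. Where several covered it, the one with the nearest summit was used. Means of the 10 groups were fitted over 30 libraries with limma (3.58.1, R 4.3.3), with trend and robust moderation. A Benjamini-Hochberg adjusted p under 0.05, two-sided, over all regions tested was a call. The line comparison took regions listed in at least 3 of the 6 libraries, and the changes those listed in at least 3 of the 12 vehicle and 0.06 nM libraries. A region listed among these 12 only in 1 line at 0.06 nM passed the second filter through those libraries alone. The p-values of its change are therefore descriptions. Single values were compared by an exact two-sided permutation test. Pileups were recovered from fold enrichment and −log10 p under a Poisson model, with whole numbers taken within 0.05, and the background pileup is percentile 1 of the local backgrounds.

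Regions were given to the nearest RefSeq protein-coding gene body (GRCh38.p14) within 100 kb. Motifs were searched in promoters on both strands. Besides the androgen receptor inverted repeat spelled out above and the nuclear factor I palindrome, these were the letters TGTTTAC bound by forkhead factors such as FOXA1, the letters CAGGAAG bound by many factors of the ETS family, the letters TGANTCA bound by dimers of the AP-1 family, the letters AGATAA bound by zinc finger factors of the GATA family and the letters CCAATAAA bound by the homeobox factor HOXB13.

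Regions were named by a rule: the 8 largest called differences each way without overlap; for androgen-induced genes the site of largest rise from vehicle to 10 nM, the 15 largest and always KLK3, KLK2, FKBP5 and TMPRSS2; up to 4 genes per other list; always FOXA1, HOXB13 and ERG; and the 5 largest differences of the change each way. Some regions that the rule takes are not reported here. Other genes and regions named, promoters included, were chosen after their values were seen. Members and lists were chosen with earlier results of these data known. The reading with summits inside the window was added after seeing the data. The fit was tested on simulated data.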

Additional observations from a re-analysis of the deposited data

Results flagged for a closer look

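The change from vehicle to 0.06 nM R1881 differed between LNCaP and VCaP at 4139 regions by limma's test of the difference itself, and the following results are listed for that reason, each as the change in LNCaP minus the change in VCaP in points of rank. At the androgen-induced sites reported here that passed, the difference was 51.0 points at LRIG1, 54.9 at TRPM8, 38.9 at C1orf116, 36.6 at KLK15, 31.4 at CHRNA2 and −56.6 points at MBOAT2. The 5 largest on the LNCaP side were 159 points at EIF2B1, 149.5 at TRAPPC2B, 143 at ZNF606, 140.4 at TBC1D31 and 139.9 at HIPK1. The 5 largest on the VCaP side were −169 points at LYRM7, −161 at SLC50A1, −122 at HDHD2, −115 at PREB and −104 at RIGI.

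Only LYRM7 and PREB of these 10 regions could be tested with the summit inside the window, where both changed sign. EIF2B1 ranked 96.6, 98.1 and 97.3 in LNCaP and 93.2, 0 and 9.64 in VCaP at 0.06 nM, with a VCaP vehicle mean of 95.9 and none listed in LNCaP vehicle. LYRM7 ranked 23.6, 11.3 and 51.6 in LNCaP and 99.2, 99.0 and 98.2 in VCaP, with a LNCaP vehicle mean of 99.5. TBC1D31, the gene of a ciliary protein, ranked 87.7, 90.9 and 95.6 in LNCaP and 0 in each library in VCaP, with an adjusted p of 1.8e-05 by limma.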

How the results depend on the processing

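In the line comparison the count of calls went from 47925 to 27962 (16186 higher in LNCaP, 11776 in VCaP) with the 50000 strongest entries, to 7653 (3551 and 4102) with a peak required in all 6 libraries, and to 17487 (9169 and 8318) with recovered pileups at those regions. VCaP calls numbered 12109 with entries at a −log10 q of at least 5. Leaving out 1 library gave 41167 to 43405 calls, 23686 to 27160 in LNCaP and 16062 to 17640 in VCaP.

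For LNCaP against vehicle the calls were 6238 (3989 higher) with 50000 entries, 4303 (3594 higher, 709 lower) with only the groups compared, and 4938 (3749 and 1189) with at least 6 libraries listed. Lower calls were 1156 with all entries and 1600 at a −log10 q of at least 5. Leaving out 1 library gave 7940 to 11479 calls, 5593 to 7039 higher and 2255 to 5408 lower, the last without LNCaP vehicle replicate 5.

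For VCaP against vehicle the calls were 3526 (3235 higher, 291 lower) at a −log10 q of at least 5, 0 (0 and 0) with only the groups compared in limma, where 9779 regions had an unadjusted p under 0.05, and 4281 (2775 and 1506) with at least 6 libraries listed. Higher calls were 8534 with all entries, against 837 lower, and 3295 with 50000 entries. Leaving out 1 library gave 5916 to 9426 calls, 3720 to 5766 higher and 1619 to 3660 lower, 1619 without VCaP 0.06 nM replicate 2.

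The difference of the change held 2720 regions (1079 with the more positive change in VCaP) at a −log10 q of at least 5, 2579 (1275 more positive in LNCaP) with normal scores, and 773 (541 and 232) with at least 6 libraries listed. Leaving out 1 library gave 3142 to 5186 calls, 1640 to 2764 more positive in LNCaP and 1412 to 3031 in VCaP, the last without LNCaP vehicle replicate 5. Causes of these moves were not tested, beyond fewer regions or libraries in the fit. The own-program difference ran from −2.40 to 16.1 percentage points when 1 library was left out.

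Same-numbered vehicle and 0.06 nM libraries deviated together with correlations of 0.0934, 0.124 and 0.229 in LNCaP and 0.0970, 0.154 and 0.0656 in VCaP. Each library correlated best with its own number. The labels do not say that the numbers mark a shared batch, and the main fit did not take them as pairs. The replicate block gave 12517 calls in LNCaP, 10950 in VCaP (4065 lower) and 5616 for the difference of the change. The main fit gave 10295, 7769 and 4139, so its counts leave out a pairing that the correlations show. No paired analysis was possible because the lines share only replicate number 4, for the line comparison itself.

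With an overlap of at least 1 bp the sign changed at HLA-DMB (2.60), BTG2 (4.53), POU3F2 (2.03), ZNF606 (−27.9), HIPK1 (−1.37), SLC50A1 (0.520) and HDHD2 (0.0603), and with summits inside the window at LYRM7 (28.9) and PREB (40.6). The same result under all settings held at 5 of 16 named androgen-induced sites and 11 of 16 named regions of the line comparison. It held at 8 of 8 regions called both ways and 7 of 15 whose change differed both ways. Of the 10 largest differences of the change, 1 kept its result.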

Other observations

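Outside the androgen pathway, called regions of other gene groups also went both ways. Among 42 cell cycle genes, 30 of 158 regions (19.0%) ranked higher in LNCaP and 19 (12.03%) in VCaP, against 27.1% and 17.4% over all regions, and 38 to 40 of the 42 starts were listed in every library. TOP2A, the gene of a topoisomerase of dividing cells, had a region at 84.8, 87.0 and 80.0 in LNCaP and 0 in each library in VCaP. CCNE1, a cyclin gene, had one at 77.3, 82.0 and 56.8 and 0 in each library. The neighbouring inhibitor genes CDKN2A and CDKN2B had opposite regions. The CDKN2A region was 0 in each library in LNCaP and 88.4, 91.9 and 78.7 in VCaP, and the CDKN2B region 58.2, 69.5 and 72.5 and 0 in each library. Lipid and sterol genes had 65 of 265 regions (24.5%) higher in LNCaP and 38 (14.3%) in VCaP, shares near those over all regions, with ELOVL5, a fatty acid elongase gene, at 0 in each library in LNCaP and 95.2, 95.3 and 94.98 in VCaP, and SREBF2, a regulator of sterol synthesis, at 84.9, 87.6 and 85.5 and 0 in each library. SMOX, a polyamine oxidase gene, had a region at 0 with vehicle in both lines and at 0 in each library in LNCaP and 68.1, 52.3 and 75.2 in VCaP at 0.06 nM (limma, adjusted p = 0.0055 for the change). That region passed the filter of the change only through the VCaP libraries at 0.06 nM, so the p-value is a description.

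Marker genes of other cell types had differing regions too. Basal markers had 16 of 54 regions (29.6%) higher in LNCaP and 6 (11.1%) in VCaP, and stromal markers 11 of 37 (29.7%) and 6 (16.2%), against 27.1% and 17.4% over all regions. A region of TP63, the basal cell factor gene, was unlisted with vehicle in LNCaP and ranked 73.9, 72.3 and 66.8 in LNCaP and 0 in each library in VCaP at 0.06 nM (limma, adjusted p = 1.2e-06 for the change). A region of COL1A2, a collagen gene among the stromal markers, had the order of the smaller count, at 0 in each library in LNCaP and 71.6, 72.9 and 61.7 in VCaP (limma, adjusted p = 0.00036 for the change). Among 12 neuroendocrine markers, 4 of 50 regions (8%) ranked higher in LNCaP and 16 (32%) in VCaP, against the same 27.1% and 17.4%, with an NCAM1 region at 0 in each library in LNCaP and 65.3, 65.7 and 71.1 in VCaP and a NEUROD1 region at 52.2, 61.0 and 72.8 and 0 in each library.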
